A study of Mus musculus with 7 samples.

Results

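The genes described here encode the nuclear-encoded subunits of oxidative phosphorylation and a few proteins named with them. They were chosen by name. Members are rows that start with Nduf (complex I), Sdh followed by a to d (complex II), Uqcr (complex III), Cox4 to Cox8 (complex IV) or Atp5 (complex V, the ATP synthase), on an autosome or the X chromosome. Of 25965 rows in the table, 93 met the name rule, and 86 of these exceeded 0 on the log2 scale in 3 or more libraries and entered the fit. That fit held 13997 genes. Of the 86 members, 83 were autosomal and 3 were X-linked.

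The libraries came from female FVB/N mouse embryos at E9.5, from the tissue just behind the last visible somite. The sample labels call this piece postsomitic mesoderm, and the series title calls it presomitic mesoderm. There were 3 libraries from Smchd1 +/+ embryos, called wild-type below, and 4 from embryos homozygous for MommeD1, which the series describes as null for Smchd1. Its design text gives 3 null samples, whereas 4 are labelled. Smchd1 is a noncanonical SMC protein, known for its part in silencing the inactive X chromosome, and the comparison asked how transcript levels differ without it. Whether each library is 1 embryo is not stated, so the p-values rest on differences between libraries that may be technical. Libraries are lettered A to D within a group because the columns carry no sample number.

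Oxidative phosphorylation takes place in the inner mitochondrial membrane. Complexes I and II feed electrons from NADH and succinate to ubiquinone, complex III passes them to cytochrome c, and complex IV passes them to oxygen. Complexes I, III and IV pump protons, and complex V uses the return flow of protons to make ATP. Most subunits are encoded in the nucleus, the others in the mitochondrial genome, and some nuclear subunits have a second isoform restricted to certain tissues. Many nuclear subunit genes are known targets of the transcription factors NRF1, GABP (an ETS factor) and YY1. Early embryonic tissue is known for strong glycolysis beside oxidative phosphorylation.

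The libraries held 19622596 to 23847381 reads in listed genes, 28.8% to 37.9% of the denominator on which the deposited values rest. Smchd1 had 1922 to 2372 reads in the null and 5572 to 6552 in the wild-type libraries, the order its labels give. The 13 mitochondrial rows of the table had 0 reads in every library, so the mitochondrially encoded subunits are not analysed here. On the deposited scale the median log2 difference, null minus wild-type, over all 13997 genes was 0.16. Unless stated, values below are therefore centred, that is, given relative to the median autosomal gene of the same library. A change is the mean of the null minus the mean of the wild-type libraries on this log2 scale. The marker sums in this paragraph are not centred. Wild-type libraries B and C held the lowest shares of reads in listed genes, at 31.2% and 28.8%, against 34.3% to 37.9% in the others. Presomitic mesoderm markers such as Tbx6 and Msgn1 were detected in every library. The 11 markers summed to 377 to 488 RPM (reads scaled to that denominator) in null and 303 to 435 in wild-type libraries. They did not move together in wild-type B, which had 118 reads of Wnt3a and 394 of Fgf8. The other libraries had 1102 to 1752 and 1124 to 1824. Dll1 was highest in wild-type B, at 6111 reads against 3713 to 5321. The 5 notochord markers summed to 35.1 to 43.3 RPM in null and 19.7 to 24.9 in wild-type libraries, and the 5 hindgut markers to 82.7 to 100.2 and 39.9 to 78.1. The 7 erythroid markers ranged from 83.4 to 111.2 and 58.8 to 122.4, the 5 neural markers from 34.4 to 81.9 and 36.9 to 87.2. None of these markers was at 0 in all libraries. In bulk tissue, fewer cells of a type and less RNA per cell cannot be told apart, and the part of cell composition in the values below was not tested.

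No member passed the test. At an adjusted p under 0.05 (limma, Benjamini-Hochberg over all genes tested), 0 of 86 members were called, against 0.0572% of all 13997 genes. The deposited scale also gave 0, against 0.0429%. On the centred scale the smallest adjusted p of a member was 0.333. At an unadjusted p under 0.05, 9 members were lower in null (background 6.71% of all genes) and 1, Cox6b2, was higher (background 7.29%). The groups did not overlap for 14 members that were lower in null, 16.3% of the 86, where the background was 6.24%. They did not overlap for 2 that were higher, Cox6b2 and Ndufb11 (background 6.51%). Changes were small: 79 of 86 lay between -0.2 and 0.2, the median SD within groups was 0.081, and the median 95% interval reached 0.169 to either side.

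Relative to the autosomal median, 72 of 86 members had a change below 0, 83.7% against a background of 57.5%, whereas on the deposited scale 84 of 86 had a change above 0, where the background was 92.7%. The median change of the members was -0.094, beside -0.031 for all genes. These medians were 0.098 and 0.161 as deposited. The median change of the members was therefore below 0 on the centred scale and above 0 on the deposited scale. It was below that of all genes on both scales. The median level of the members lay below the autosomal median in every library of both groups. By library, the median centred value of the 86 members was -0.232, -0.206, -0.204 and -0.253 in null A to D, and -0.239, -0.127 and -0.054 in wild-type A to C. Wild-type A lay within the null range, and wild-type B and C lay above it.

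The difference between the groups lay in wild-type B and C more than in wild-type A. The value in wild-type A was above all 4 null libraries for 18 members, within their range for 52 and below it for 16. For wild-type B these counts were 62, 17 and 7, and for wild-type C they were 55, 26 and 5. Without wild-type A, the groups did not overlap for 50 of 86 members lower in null (background 19.6%) and 0 were called (background 0.0288%). That count of 50 follows from the same values that set wild-type A apart and adds no support of its own. With each library left out in turn, the count ran from 12 to 50 (background 7.11% to 19.6%). The columns also carry an unexplained number, 18, 21 or 22. Among libraries numbered 18 (null A and wild-type B) the median difference of the members was -0.128, among those numbered 21 (null D and wild-type C) it was -0.131, and among those numbered 22 (null B and C and wild-type A) it was 0.005. The names also start with another unexplained number, 4180 in wild-type B, wild-type C and null D, 4168 in null B and C, 4159 in null A and 4121 in wild-type A. Wild-type B and C thus shared it with null D and not with wild-type A. Within 4180, the member medians above were -0.253 in null D and -0.127 and -0.054 in wild-type B and C. Read share moved with the wild-type libraries that set the difference, and its part in the result was not tested.

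**Figure D1:**
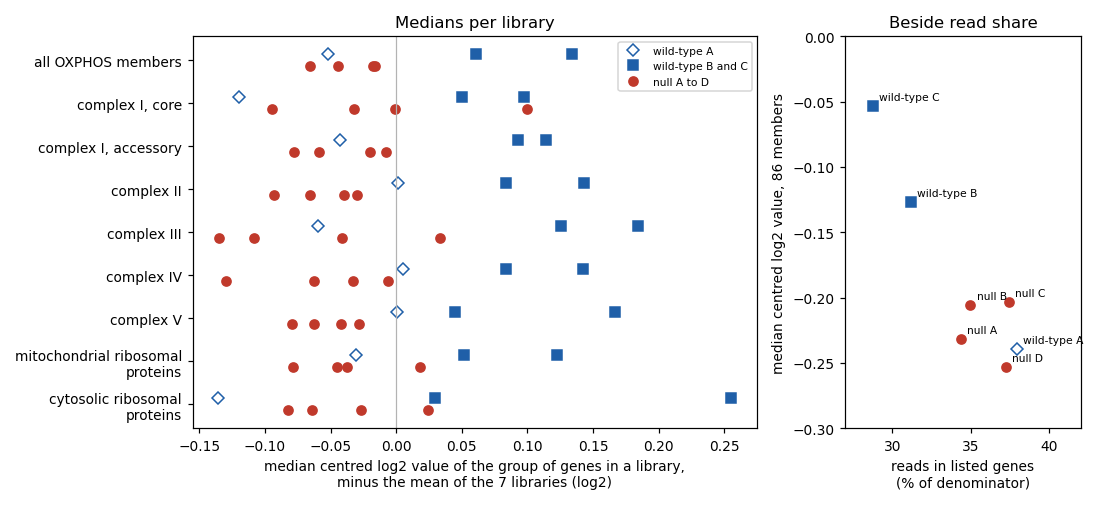
Left, the median centred log2 value of each group of genes in each library, minus the mean of the 7 libraries; circles are null A to D, filled squares wild-type B and C, the open diamond wild-type A. Right, the median centred value of the 86 members against the share of the denominator in listed genes; wild-type B and C lie highest on the y axis and have the lowest shares, and wild-type A lies among the null libraries (on the deposited scale the direction of the group difference flips).

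Complex I takes electrons from NADH. Its core subunits, which carry the catalytic centres, had a median change of -0.083 over 7 genes (-0.043 after cyclic loess, -0.048 after quantile normalization, -0.048 with array weights and -0.020 without wild-type B), and its accessory subunits -0.091 over 28, with 6 and 23 of them below 0. As deposited, these medians were 0.109 and 0.101. Ndufv1, the NADH-binding core subunit (chromosome 19, 4007497 to 4012806, mm10), had centred values of 1.12, 1.15, 1.16 and 1.10 in null A to D and 1.20, 1.37 and 1.29 in wild-type A to C. All 4 null libraries were below the wild-type ones, by at least 0.039. The change was -0.16 (95% interval -0.28 to -0.04, limma adjusted p = 0.352), and 0.033 on the deposited scale.

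Among accessory subunits, Ndufb3, Ndufa13 and Ndufs4 also had groups that did not overlap. Ndufb3 had values of -0.80, -0.82, -0.79 and -0.80 in null and -0.71, -0.66 and -0.65 in wild-type libraries, a change of -0.13 (interval -0.29 to 0.02, limma adjusted p = 0.373). Its SD was 0.011 over the 4 null libraries. Ndufa13, also known as GRIM-19, had values of -0.05, -0.06, -0.10 and -0.01 in null and 0.06, 0.23 and -0.002 in wild-type libraries, so that wild-type C came within 0.004 of null D. Ndufs4, loss of which is a known cause of Leigh-like disease in mice and people, had values of 0.06, -0.10, 0.02 and -0.07 in null and 0.09, 0.10 and 0.14 in wild-type libraries. Its change was -0.13 (interval -0.28 to 0.01). On the deposited scale the changes of Ndufb3, Ndufa13 and Ndufs4 were 0.06, 0.04 and 0.06. Ndufb4 had the highest autosomal value of the accessory subunits, 0.20 (interval -0.22 to 0.62), and 37.0% of its 50-base stretches also occur in other genes. The 4 assembly factors Ndufaf1 to Ndufaf4, which help build complex I and are not part of it, had a median of -0.029 and no group separation.

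Complex II, the succinate dehydrogenase that also serves the TCA cycle, has no mitochondrially encoded subunit, and its 4 subunits all had a change below 0 (median -0.108, 0.084 on the deposited scale). For 3 of the 4 the groups did not overlap (background 6.24%). Sdhb, the iron-sulphur subunit, had values of 0.78, 0.69, 0.76 and 0.70 in null and 0.80, 0.93 and 0.89 in wild-type libraries. Its change was -0.14 (interval -0.26 to -0.02, limma adjusted p = 0.352). Sdhd, a membrane anchor, had values of 0.66, 0.70, 0.70 and 0.64 in null and 0.73, 0.88 and 0.81 in wild-type libraries, a change of -0.13. Sdhc, the other anchor, had 0.31, 0.30, 0.30 and 0.25 in null and 0.31, 0.46 and 0.37 in wild-type libraries, and null A and wild-type A were 0.0024 apart. Wild-type A was the lowest wild-type library for all 3. Sdha, the flavoprotein subunit, had a change of -0.07 (interval -0.18 to 0.03) and overlapping groups. The assembly factors Sdhaf1 and Sdhaf2 had a median of -0.039.

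Complex III had a change below 0 for all 8 of its nuclear members (median -0.117, 0.076 on the deposited scale), and 0 of the 8 reached an unadjusted p under 0.05. Uqcr11, a small subunit, was its only member with separate groups, at -1.63, -1.62, -1.64 and -1.77 in null and -1.61, -1.41 and -1.55 in wild-type libraries. The gap between null B and wild-type A was 0.0098, and the change was -0.14 (interval -0.37 to 0.09). Of the 50-base stretches of Uqcr11, 10.9% also occur in another gene. Uqcrq, another small subunit, had the lowest change of the complex, -0.18 (interval -0.39 to 0.03), with groups that overlapped.

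Complex IV held the lowest and the highest changes of any subunit, and the highest were in isoforms with restricted expression. Its 14 members in the fit had a median of -0.093 (0.099 on the deposited scale), with 10 below 0. Cox6a1, the widely expressed isoform of subunit VIa (chromosome 5, 115345642 to 115348981, mm10), had values of -0.57, -0.57, -0.54 and -0.67 in null and -0.35, -0.34 and -0.40 in wild-type libraries. It had 739 to 781 reads in null and 710 to 889 in wild-type libraries. Every null library was below every wild-type library by at least 0.139, the widest gap among the members lower in null, and wild-type A stood with B and C. The change was -0.22 (interval -0.37 to -0.07, limma adjusted p = 0.338), or 0.858 of the wild-type level, and between -0.24 and -0.20 with any 1 library left out. On the deposited scale it was -0.03. Of the 50-base stretches of Cox6a1, 12.3% also occur in another gene.

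Cox6b2, an isoform of subunit VIb known mainly from testis (chromosome 7, 4751794 to 4753094, mm10), had the smallest p of all members. It had 370, 491, 361 and 520 reads in null A to D and 261, 166 and 296 in wild-type A to C. Its centred values were -1.59, -1.23, -1.58 and -1.17 in null and -2.12, -2.51 and -1.66 in wild-type libraries, so every null library was above every wild-type library, with 0.068 between null A and wild-type C. The change was 0.70 (interval 0.22 to 1.18, limma unadjusted p = 0.00946, adjusted p = 0.333), or 1.63 times the wild-type level. It was 0.90 on the deposited scale. Without wild-type B it was 0.50, and without wild-type C it was 0.92.

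The 250 bases before the RefSeq start of these 2 genes are shown because they had the smallest p of the members in each direction. Both lie on the minus strand and are written 5′ to 3′ in GRCm38.p6, the build also called mm10. Capitals mark matches to the NRF1 motif GCGCATGC and to the ETS motif CCGGAAG on either strand.
Cox6a1 (chr5:115348959-115349208): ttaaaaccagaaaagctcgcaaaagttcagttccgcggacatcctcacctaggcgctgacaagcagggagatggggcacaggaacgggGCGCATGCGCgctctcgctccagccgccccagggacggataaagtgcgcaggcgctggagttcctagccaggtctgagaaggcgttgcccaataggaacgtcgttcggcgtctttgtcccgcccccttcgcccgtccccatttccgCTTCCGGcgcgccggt
Cox6b2 (chr7:4753095-4753344): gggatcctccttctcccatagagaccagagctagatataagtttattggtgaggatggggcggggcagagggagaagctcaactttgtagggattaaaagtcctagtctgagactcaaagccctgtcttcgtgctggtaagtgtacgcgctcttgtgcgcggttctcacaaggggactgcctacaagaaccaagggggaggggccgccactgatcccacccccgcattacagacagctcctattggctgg
The Cox6a1 stretch holds the NRF1 letters on both strands, overlapping in 1 run, the ETS letters on the opposite strand, and 26 CG dinucleotides. The Cox6b2 stretch holds 0 matches to these motifs and 8 CG dinucleotides.

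Other isoforms with restricted expression varied more between libraries than the median member. The SDs in null and wild-type libraries were 0.19 and 0.30 for Cox4i2 and 0.79 and 0.93 for Ndufa4l2. The median over all members was 0.081. The common subunit Atp5l, with 119 to 225 reads, had SDs of 0.20 and 0.34. Atp5l thus had a spread like that of Cox4i2, but with fewer reads, and 68.5% of its 50-base stretches also occur in other genes. Whether such a spread is particular to restricted isoforms was not tested. Cox4i2, an isoform of subunit IV known for its link to low oxygen, had 522, 536, 472 and 686 reads in null and 470, 310 and 460 in wild-type libraries. Its change was 0.26 (interval -0.10 to 0.62, limma adjusted p = 0.417), the groups overlapped, and it was 0.11 without wild-type B. Ndufa4l2, a paralogue of the complex IV subunit Ndufa4 and a known hypoxia-inducible gene, had 104, 135, 53 and 214 reads in null and 64, 29 and 104 in wild-type libraries. Its change of 0.79 had the widest interval of the members, -0.43 to 2.00, and null D was the highest and wild-type B the lowest library. It was 0.33 without wild-type B.

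Within a library, the ratio of an isoform to its common partner does not depend on the scale. For Cox6b2 over Cox6b1, the log2 ratio was -1.32, -0.98, -1.36 and -0.90 in null and -1.90, -2.46 and -1.62 in wild-type libraries. All null ratios were above all wild-type ratios, and Cox6b2 reads were 38.9% to 53.7% of Cox6b1 reads in null and 18.2% to 32.5% in wild-type libraries. The mean difference was 0.85, and 0.62 without wild-type B. For Cox4i2 over Cox4i1 the ratio was -1.66, -1.69, -1.84 and -1.32 in null and -1.88, -2.38 and -1.70 in wild-type libraries, a difference of 0.36 that was 0.17 without wild-type B. For Ndufa4l2 over Ndufa4 it was -3.41, -3.08, -4.38 and -2.42 against -4.15, -5.19 and -3.35, a difference of 0.91 that was 0.43 without wild-type B. In the last 2 pairs the groups overlapped. Wild-type B had the lowest value of each of the 3 restricted isoforms. It also had the lowest summed notochord, hindgut, erythroid, endothelial, surface ectoderm and presomitic mesoderm markers. These were 19.7, 39.9, 58.8, 82.5, 51.35 and 303 RPM. Its summed neural markers were the highest, at 87.2 RPM. The sums were not centred, and the autosomal median (log2) was 4.19, 3.86 and 3.78 in wild-type A to C. In null libraries it was 4.05 to 4.19. The part of read share in these sums, and of cell composition in the isoform values, was not tested. The partners Cox6b1, Cox4i1 and Ndufa4 had changes of -0.15, -0.10 and -0.12, and 0.04, 0.09 and 0.07 on the deposited scale.

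**Figure D2:**
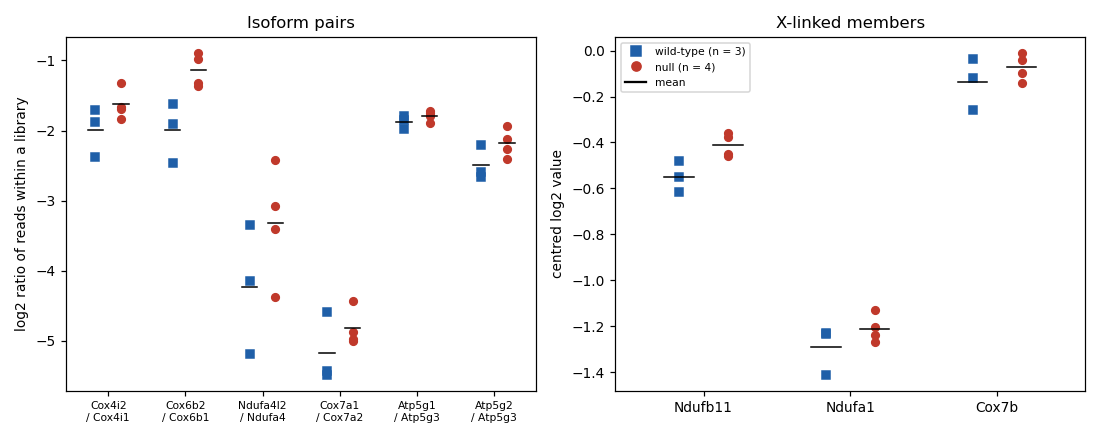
Left, log2 ratio of the reads of an isoform to those of its partner within each library; right, centred log2 values of the 3 X-linked members. Squares are the 3 wild-type and circles the 4 null libraries, and short lines are group means; the groups are separate for Cox6b2 over Cox6b1 and for Ndufb11 and overlap for the other pairs and genes.

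Unlike Cox6b2 and Cox4i2, 5 tissue-restricted isoforms of complex IV did not pass the filter. Cox6a2, of heart and muscle, had 0 or 1 read, Cox8b and the testis isoform Cox8c had 0 reads in every library, and Cox7b2 had 0 to 2. Cox7a1, the heart and muscle isoform of subunit VIIa, had 22 to 50 reads, 2.24% to 4.63% of those of Cox7a2, and no library with a log2 value above 0. The 8 heart and skeletal muscle markers summed to 6.15 to 9.31 RPM in null and 3.36 to 5.25 in wild-type libraries. The widely expressed partners Cox7a2 and Cox8a had changes of -0.10 each (0.10 and 0.09 on the deposited scale), with groups that overlapped.

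Complex V had a median of -0.127 (0.065 on the deposited scale), with 14 of 15 members below 0. Its median was -0.066 after cyclic loess and -0.068 after quantile normalization. Atp5k, the e subunit, had values of -1.60, -1.53, -1.59 and -1.48 in null and -1.47, -1.29 and -1.35 in wild-type libraries, a change of -0.18 (interval -0.39 to 0.04, limma adjusted p = 0.379). Null D and wild-type A were 0.0074 apart. Atp5j2, the f subunit, also had separate groups, with a change of -0.13 (interval -0.29 to 0.03). Atp5d, the delta subunit of the rotor stalk, had values of 0.60, 0.61, 0.61 and 0.64 in null and 0.65, 0.84 and 0.76 in wild-type libraries, a change of -0.13 (interval -0.26 to -0.003). The catalytic beta subunit Atp5b had 4913 to 5086 reads in null and 4733 to 4948 in wild-type libraries, and a change of -0.14 (interval -0.30 to 0.01) that was 0.05 on the deposited scale. Of its 7 libraries, wild-type A lay among the null values. The row named Atp5o spans 247290 bases and overlaps Donson and Cryzl1, so its change of -0.11 (interval -0.21 to -0.01) is not that of the oligomycin-sensitivity subunit alone.

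The c subunit of the rotor ring has 3 genes, Atp5g1, Atp5g2 and Atp5g3, whose mature proteins are the same and which differ in their import sequences. Atp5g3, the most abundant here, had a change of -0.12 (0.07 on the deposited scale), Atp5g1 -0.03 (0.16) and Atp5g2 0.18 (0.38), and none of these had separate groups. Atp5g2 reads were 18.9% to 26.1% of Atp5g3 reads in null and 15.8% to 21.6% in wild-type libraries. Of the 50-base stretches of Atp5g2, 87.4% also occur in other genes, so its counts are uncertain.

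A pseudogene of complex V, Atp5l-ps1, had the widest gap between groups of the rows that met the name rule. It lies on chromosome 7, 62476306 to 62476617 in mm10, beside Peg12 and Mkrn3 in the imprinted Snrpn region. It had 13, 10, 10 and 14 reads in null A to D and 2, 4 and 2 in wild-type A to C. All null libraries were above all wild-type libraries. Pooled, 47 against 8 reads gave a ratio of 4.46 (exact 95% interval 2.09 to 10.9, counting error only). The row failed the filter. In a fit without the filter, its centred change was 2.03 (interval 1.15 to 2.91, limma adjusted p = 0.240), where 0.0413% of 21810 genes were called and 6.12% had groups separate and higher in null. Its neighbours Peg12 and Mkrn3, which are no members, had changes of 0.59 (limma adjusted p = 0.168) and 1.21 (adjusted p = 0.102), with groups that did not overlap.

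The parent gene Atp5l, the g subunit, is nearly the same sequence, and the stretches below show where reads of the 2 can be told apart. Over 312 aligned bases 307 are identical, with no gap, and the longest identical run is 171 bases. Each line is 60 bases of the transcript, 5′ to 3′ in GENCODE M21 (GRCm38), and capitals mark the 3 differing bases.
Atp5l: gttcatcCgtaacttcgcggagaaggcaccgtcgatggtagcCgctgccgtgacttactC
Atp5l-ps1: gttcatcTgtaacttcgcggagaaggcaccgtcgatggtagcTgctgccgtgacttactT
Of the 50-base stretches, 68.5% in Atp5l and 55.1% in Atp5l-ps1 also occur in another gene. How the authors counted such reads is not given in the sources used here, so both values are uncertain. Atp5l itself had a change of -0.14 (0.06 on the deposited scale) with groups that overlapped.

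**Figure D3:**
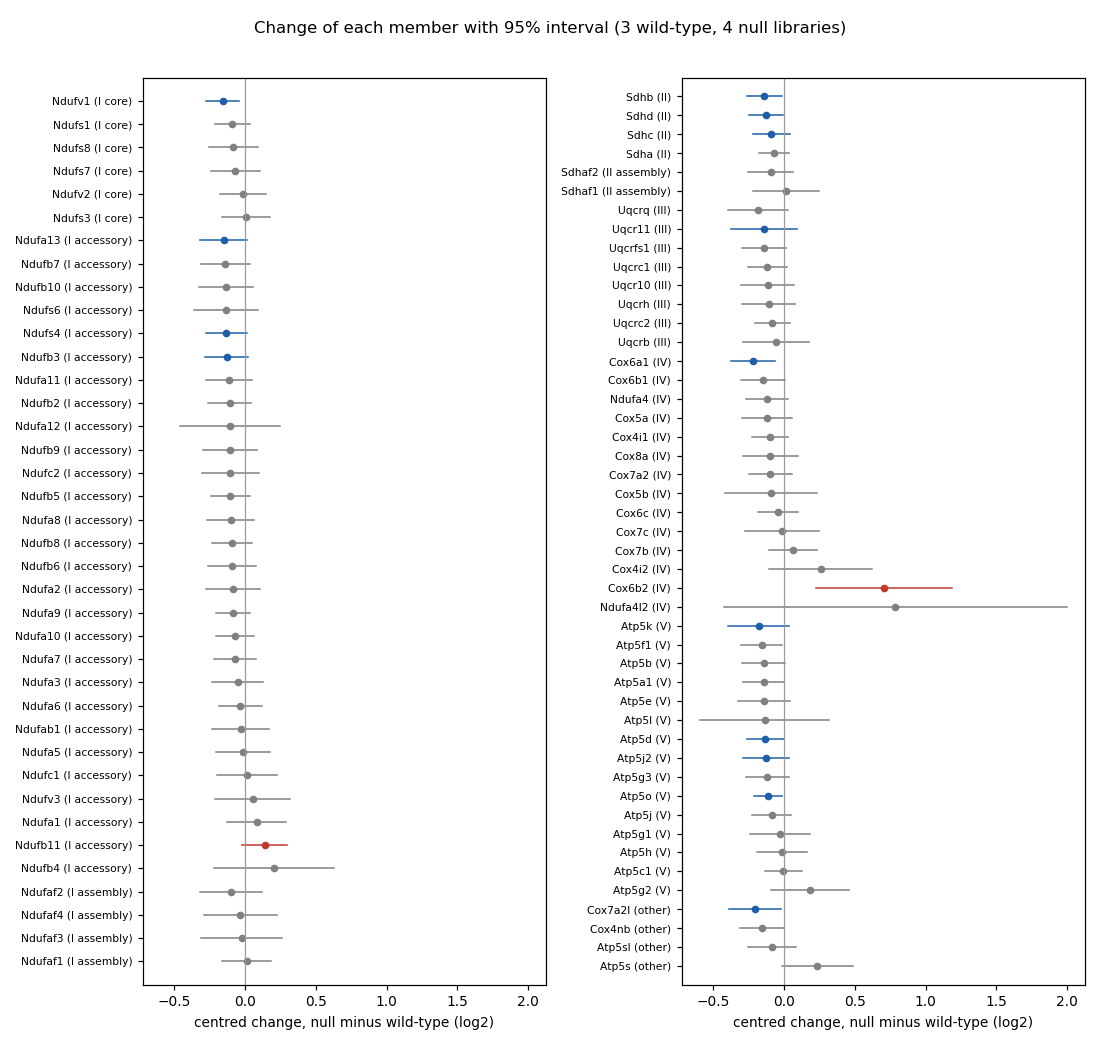
Centred log2 change, null minus wild-type, of the members with its 95% interval, by complex, with 1 member not shown. Blue marks the 14 members with all null below all wild-type libraries and red the 2 with all null above; most points lie between -0.2 and 0 on this scale, Cox6b2 and Ndufa4l2 lie highest, and on the deposited scale 84 of 86 lie above 0.

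The 3 X-linked members had changes above 0 on the centred and the deposited scale, and none passed the test. They are given apart because Smchd1 is known to act on the inactive X chromosome. Ndufb11, an accessory subunit of complex I (X chromosome, 20615326 to 20617619, mm10), had values of -0.46, -0.38, -0.36 and -0.45 in null and -0.62, -0.55 and -0.48 in wild-type libraries. The groups did not overlap, with 0.022 between null A and wild-type C, and the change was 0.14 (interval -0.02 to 0.30, limma adjusted p = 0.367). Ndufa1, also in complex I, had -1.27, -1.20, -1.24 and -1.13 in null and -1.41, -1.23 and -1.24 in wild-type libraries, a change of 0.08 (interval -0.13 to 0.29). Cox7b, of complex IV, had -0.01, -0.14, -0.10 and -0.04 in null and -0.26, -0.12 and -0.04 in wild-type libraries, a change of 0.07 (interval -0.10 to 0.23). The last 2 had groups that overlapped. The median of the 3 was 0.081, beside 0.150 for all 496 X-linked genes in the fit and -0.096 for the 83 autosomal members. Groups did not overlap and were higher in null for 1 of 3 of these members and for 32.5% of all X-linked genes. The reads of Ndufb11 do not show which X chromosome they came from. Its row overlaps the coding gene Rbm10 on the other strand, and 9.55% of its 50-base stretches also occur in another gene.

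The name rule also caught proteins that are not subunits of the 5 complexes. Cox7a2l, a factor that joins complexes III and IV into supercomplexes, had values of -0.78, -0.92, -0.75 and -0.91 in null and -0.58, -0.68 and -0.64 in wild-type libraries. Its groups were 0.061 apart, and the change was -0.20 (interval -0.39 to -0.02, limma adjusted p = 0.352), -0.01 on the deposited scale. Of its 50-base stretches, 19.8% also occur in another gene. Cox4nb, now called Emc8 and part of a membrane protein complex of the endoplasmic reticulum, had a change of -0.16, and Atp5s one of 0.24 (interval -0.01 to 0.48). With subunits alone, 75 genes in the fit, the median was -0.098 (0.094 on the deposited scale) and 64 were below 0. Of the 93 rows, 7 did not pass the filter. They were Ndufs5, Cox6a2, Cox7a1, Cox7b2, Cox8b, Cox8c and Atp5l-ps1. Ndufs5, an accessory subunit of complex I that is widely expressed, had only 39 to 65 reads, and 31.1% of its 50-base stretches are shared with BC002163. No member passed the filter through 1 group only.

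Other genes of mitochondrial energy metabolism were described by the same counts, and 0 genes of any of these lists passed the adjusted threshold. The 28 assembly factors outside the name rule had a median of -0.037, with 2 whose groups were separate and lower in null, 7.14% of the list and near the background of 6.24%. The smallest p of that list belonged to Taco1, a translational activator of mitochondrial Cox1, at -0.20, and the copper chaperone Sco1, at -0.18. Electron carriers had a median of -0.050 over 14 genes. Cytochrome c1 (Cyc1), a subunit of complex III that the name rule misses, had a change of -0.16 (interval -0.33 to 0.02), and cytochrome c (Cycs) -0.27 (interval -0.67 to 0.14). Coq2, an enzyme of ubiquinone synthesis, had 2186, 2392, 2216 and 2710 reads in null and 2047, 1627 and 1549 in wild-type libraries. Its groups did not overlap, and its change was 0.28 (interval 0.13 to 0.43, limma adjusted p = 0.245), or 0.47 on the deposited scale. Coq5, another enzyme of that pathway, had separate groups in the other direction, with a change of -0.16 (interval -0.30 to -0.02), or 0.04 on the deposited scale. Groups were thus separate for 1 of the 14 electron carriers in each direction (7.14%), near the backgrounds of 6.24% lower and 6.51% higher.

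The 18 genes of the TCA cycle and pyruvate dehydrogenase had a median of -0.076, with 16 below 0. Groups were separate and lower in null for 4 of the 18 (22.2%, background 6.24%) and higher for 1 (5.56%, background 6.51%). Citrate synthase (Cs) had a change of -0.15 (interval -0.27 to -0.03). The X-linked Idh3g, a subunit of isocitrate dehydrogenase, had one of 0.22 (interval 0.10 to 0.34). Both had separate groups, and neither was past the adjusted threshold. The 17 genes of mitochondrial transcription, replication and regulation had a median of -0.063. Groups were separate and lower in null for 4 of the 17 (23.5%, background 6.24%) and higher for 0. Among the 4 were Yy1 at -0.18 and Peo1, the mitochondrial DNA helicase, at -0.16 (0.01 and 0.03 on the deposited scale). The 20 glycolysis genes had a median of -0.010, with 11 below 0 and 0 with separate groups. On the deposited scale the medians of these lists were all above 0, from 0.116 to 0.182 for assembly factors, electron carriers, TCA cycle, regulators and glycolysis.

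Ribosomal protein genes had medians at least as low as those of the OXPHOS members. The 76 mitochondrial ribosomal proteins had a median of -0.117 with 74 below 0, and the 81 cytosolic ribosomal proteins -0.131 with 74 below 0, and 0.076 and 0.062 on the deposited scale. Groups were separate and lower in null for 10 and 8 of them, 13.2% and 9.88%. These shares stood beside 16.3% of the OXPHOS members and 6.24% of all genes. In the TCA cycle and regulator lists above, the share was larger than in the OXPHOS members, at 22.2% and 23.5%. By library, the mitochondrial ribosomal median was 0.027, -0.070, -0.029 and -0.037 in null and -0.022, 0.131 and 0.060 in wild-type libraries. Wild-type A lay within the null range here too. Members have short transcripts, with a median of 944.5 bases against 2960 over all genes in the fit. The shortest, middle and longest transcripts in the fit, in equal groups, had medians of -0.040, -0.020 and -0.032. Spearman's rho of change and transcript length was 0.024 over 13745 genes and 0.069 over the members, a correlation across genes of the same libraries, which are not independent replicates.

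Levels of members were compared per length, as reads per kilobase of the principal GENCODE transcript on the RPM scale (RPKM), in wild-type libraries. Over 85 members, Atp5o left out, they ran from 0.949 for Ndufa4l2 to 39.0 for Atp5b, with a median of 15.8. The highest were Ndufb8 (31.1) among the accessory subunits of complex I, Sdhb (24.6) in II, Uqcrh (31.3) in III, Cox4i1 (32.3) in IV and Atp5b in V. The SDs of these log2 levels over the 3 wild-type libraries were 0.10 to 0.18. They include the shift that all genes of a library share, so they cannot judge the order of Ndufb8, Uqcrh and Cox4i1. That order was not compared within libraries. Among assembly factors the highest were Ndufaf2 at 15.1 RPKM and Sdhaf2 at 6.67. Medians by complex were 19.8 for the complex I core, 15.6 for its accessory subunits, 22.7 for II, 16.8 for III, 21.2 for IV and 18.9 for V.

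Levels of isoforms were set beside those of their common partners. Cox6b2 was at 6.14 RPKM in wild-type and 11.4 in null libraries, against 23.1 and 23.8 for Cox6b1. Cox4i2 was at 8.50 and 11.6, against 32.3 and 34.4 for Cox4i1. Atp5g3 was at 37.0 and 38.9, Atp5g2 at 6.53 and 8.48, and Atp5g1 at 1.54 and 1.73, the last over a principal transcript of 4715 bases where that of Atp5g3 has 723. The 17 members with at least 10% of their 50-base stretches in other genes had a median of 8.80 RPKM, and the other 68 had 17.0. With Atp5o included, groups were separate and lower in null for 4 of 18 such members (22.2%). They were so for 10 of the other 68 (14.7%), and the background was 6.24%. Reads that fit several genes can be lost or split in counting, and this was not tested.

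**Figure D4:**
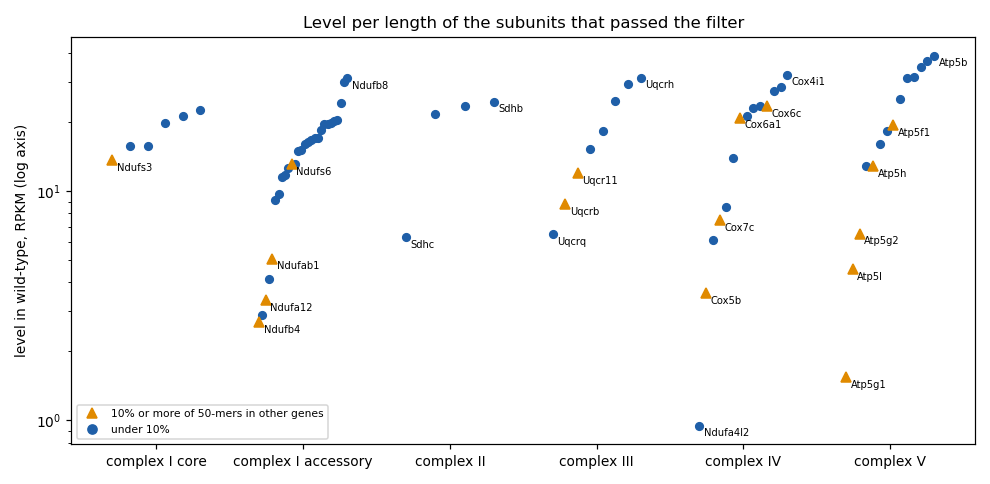
Level per length in wild-type libraries (RPKM, log axis) of the subunits in the fit (1 not shown), ranked within each complex. Orange triangles are members with at least 10% of their 50-base stretches in other genes, and many of them are among the lowest of their complex, while Atp5b is highest at 39.0.

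The promoters of the members were searched for 5 motifs known from this pathway, on both strands of the 300 bases around the RefSeq start (250 before, 50 after). Of the 86 members, 70 matched a promoter by symbol. The NRF1 motif GCGCATGC was found in 11 of the 70 (15.7%), against 5.96% of 9568 genes in the fit with a promoter and 3.05% of all 27025. These were Ndufa6, Ndufa8, Ndufa11, Ndufaf4, Sdhb, Uqcrc1, Uqcr11, Cox6a1, Atp5g2, Atp5k and Atp5l. The ETS motif CCGGAAG was found in 19 (27.1%, against 19.1% and 9.93%). The YY1 motif AAGATGGCG, whose first letters can overlap the end of the ETS motif, was found in 8 (11.4%, against 3.37% and 1.64%). The CREB motif TGACGTCA was in 4 (5.71%, against 3.67% and 2.03%), and the hypoxia response core ACGTGC in 3 (4.29%, against 9.58% and 6.68%). Of the 11 members with the NRF1 letters, 10 had a centred change below 0, as had 59 of the 70 with a promoter, and on the deposited scale 10 of 11 and 68 of 70 were above 0. On the centred scale the exception was Atp5g2, whose counts are uncertain, and on the deposited scale it was Cox6a1. A match is a description of letters in this window and not a shown binding site.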

How the data were processed

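RNA-seq was analysed from 3 wild-type and 4 Smchd1-null libraries. Per the file headers, the authors deposited log2 RPM values for 25965 rows, each scaled to a denominator of its library. The submitters' processing notes name bcl2fastq, TopHat2 2.0.12, edgeR and mm10. Which annotation was used, in what order the tools ran and whether counting used strand is not given in the sources used here, so overlapping and antisense genes cannot be told apart. By position, the rows of Ndufb11, Ndufa4l2, Atp5d and Cox4i1, among others, overlap a coding gene on the other strand. Below 1000 reads, 100% of values came out as whole reads (tolerance 0.01), and reads were recovered on that basis. A row with no read is listed at 0.9 read.

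Genes that exceeded 0 on the log2 scale in 3 or more libraries were kept (13997, of them 13500 autosomal). Each library was centred on the median of its kept autosomal genes. Genotype was tested with limma 3.58.1 (R 4.3.3, prior trend) with Benjamini-Hochberg adjustment at 0.05 over all kept genes, and the fit was tested on simulated data. Lists were described by counts and medians. Lengths and shared stretches of 50 bases came from 1 principal transcript per gene of GENCODE M21, to which 93 of 93 rows matched by name and position, and promoters from RefSeq. Tables and figures used Python 3.11.15, numpy 2.4.6, pandas 2.3.3, scipy 1.17.1, Biopython 1.88 and matplotlib 3.10.9.

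The members and lists were chosen with earlier results of these data known. Members named with values were those past the threshold, X-linked members, up to 3 in each direction per complex with separate groups and the smallest p, the highest per length in each complex, isoform pairs, and members that failed the filter. From other lists they were the 2 with the smallest p, with Cycs and Cyc1. Other members named, including Atp5j2, Uqcrq, Ndufb4, Sdha, Atp5l, Cox7a2l, Cox4nb, Atp5s, Atp5l-ps1, Peg12 and Mkrn3, were chosen after their values were seen. For 1 gene, values are not reported here, though it stays in the fit and the counts. Alternatives were the deposited scale, other normalizations, filters, pseudocount, priors, weights, a block and each library left out.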

Additional observations from a re-analysis of the deposited data

Results flagged for a closer look

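The centred value of Uqcr11, a small subunit of complex III, in null library D was -1.768, while the other 3 null libraries lay between -1.64 and -1.62. Its gap to the nearest library was 0.881 of the range of the null group, above the 95% critical value of Dixon's test for 4 libraries. It was the only value of 41 tested that exceeded its critical value, and chance alone flags about 1 in 20 groups. Uqcr11 had 344 reads in that library and 347 to 376 in the other null libraries.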

How the results depend on the processing

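Of 19 alternatives, 18 left the median change of the members below 0 and none called a member, with a lowest adjusted p of 0.127. Centring shifts each library by its own median, so spreads, p-values and the overlap of groups also depend on it. The deposited scale, on which the change of every gene differs from its centred change by 1 constant, reversed the median to 0.098. It reversed the medians of complex I core (0.109), I accessory (0.101), I assembly (0.163), II (0.084), III (0.076), IV (0.099) and V (0.065). It also reversed Ndufv1 (0.033), Ndufb3 (0.062), Ndufa13 (0.041), Ndufs4 (0.061), Ndufb8 (0.099), Ndufaf2 (0.096), Sdhb (0.053), Sdhc (0.103), Sdhd (0.065), Sdhaf2 (0.099), Uqcr11 (0.051), Uqcrh (0.083), Cox4i1 (0.091), Cox6b1 (0.042), Cox7a2 (0.097), Cox8a (0.094), Ndufa4 (0.072), Atp5b (0.047), Atp5d (0.059), Atp5g1 (0.164), Atp5g3 (0.074), Atp5k (0.014) and Atp5o (0.081). Atp5g1 was also reversed with array weights (0.00087) and without wild-type library B (0.047), and the cause was not tested.

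Members at an unadjusted p under 0.05 and lower in null were 9, and 0 on the deposited scale (0.114% of all genes), 4 with cyclic loess and 5 with quantile normalization. Leaving out 1 library gave 2 to 29. There were 2 without null B (2.37% of all genes), null D (3.32%) or wild-type B (2.15%). There were 3 without null C (4.86%) and 4 without wild-type C (5.76%). In these fits the share of members was close to or below that of all genes. Without wild-type A there were 29, where 1676 of 13912 genes were. No such share is given here for cyclic loess and quantile normalization. Members higher at that p were 1, and 4 on the deposited scale (13.9% of all genes), 2 without the filter, 3 without the prior trend and 3 with a block on the last number in the column names. Leaving out 1 library gave 1 to 4, with 2 without null C and 4 without wild-type C. Groups separate and lower were 14, and 0 on the deposited scale (0.0572% of all genes) and 12 to 50 with 1 library left out (50 without wild-type A), where 7.11% to 19.6% of all genes were. Groups separate and higher were 2, and 4 on the deposited scale (7.02% of all genes) and 2 to 4 with 1 library left out (4 without wild-type C). The median with 1 library left out ran from -0.140 to -0.066.

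No paired analysis was possible because the column names carry no sample number of the labels, and the block above rests on a number that no label explains. The planned count tests were not run, since the deposited values are log2 values, and limma voom on the recovered reads was chosen after seeing the data in their place, as was the value of Atp5l-ps1 without the filter. With 3 and 4 libraries, a median interval of 0.169 to either side limits what these changes can show.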
